A study of Rattus norvegicus with 12 samples.

Results

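Rat corneas labelled SF/HA-HEP-PAM were compared with rat corneas labelled SF/HA, 3 RNA sequencing libraries against 3, out of 12 libraries in the series. The series title describes a silk-based patch for the eye surface that takes up inflammatory mediators. What SF, HA, HEP and PAM stand for is not given in the labels, so the 2 patches keep those names here, and the labels set them apart by the added HEP-PAM. The other libraries are 3 labelled Control and 3 labelled Alkali-burned. The labels give tissue and group and nothing on strain, sex, age, time after treatment, animals per library or whether the corneas under a patch had been burned. Nothing says that replicates came from separate animals, so p-values measure the spread between these libraries, which may be technical. Of 30452 genes in the table, 6112 reached 1 FPKM (the deposited unit, scaled to gene span and to the reads of a library) in at least 3 of the 12 libraries and were tested.

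The cornea is covered by a stratified epithelium whose cells are joined by desmosomes, tight and adherens junctions and gap junctions, and whose identity is kept by transcription factors such as PAX6 and KLF4. Beneath it lies the stroma, where keratocytes make collagens and small leucine-rich proteoglycans, among them decorin, lumican and keratocan, that space the collagen fibrils. After chemical injury the epithelium migrates over the wound, stromal cells can turn into contractile myofibroblasts, and chemokines draw neutrophils and macrophages into the tissue.

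Genes higher in corneas with the SF/HA-HEP-PAM patch than in those with the SF/HA patch included epithelial transcription factors such as Grhl3 and Klf4, the junction gene Ctnnb1 and splicing genes such as Rbm39 and Srsf3. Genes lower included the stromal proteoglycans Dcn and Lum, the matrix protein Mgp and the chemokine Cxcl1. With limma on log2(FPKM + 1), an adjusted p below 0.05 and a 2-fold minimum, 267 of 6112 genes (4.37%) were called. Of these, 235 (3.84%) were higher and 32 (0.524%) lower under SF/HA-HEP-PAM, so 88.0% of the calls were rises. The median log2 difference over all genes was 0.13, and each difference below can be read against it. Median-of-ratios scaling moved that median to -0.02 and the split to 169 higher and 91 lower (65.0% rises). Quantile normalization gave a median of -0.09 with 172 and 71 (70.8% rises). A voom fit on the recovered reads gave 450 higher (5.2%) and 286 lower (3.31%) of 8653 genes (61.1% rises), and log2(CPM + 1) gave 378 (6.18%) and 67 (1.1%). Of the 267 calls, 198 could be tested in the voom fit and 175 were called there in the same direction. Every SF/HA-HEP-PAM library lay above every SF/HA library in 1320 genes (21.6%) and below in 592 (9.69%). In 6 fits that each left out 1 library, Grhl3, Rbm39 and Srsf3 kept their calls in all 6, Klf4 in 5 and Ctnnb1 in 2. Of the falls named above, Mgp kept its call in 2 of these fits, Lum and Cxcl1 in 1 each and Dcn in none.

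**Figure D1:**
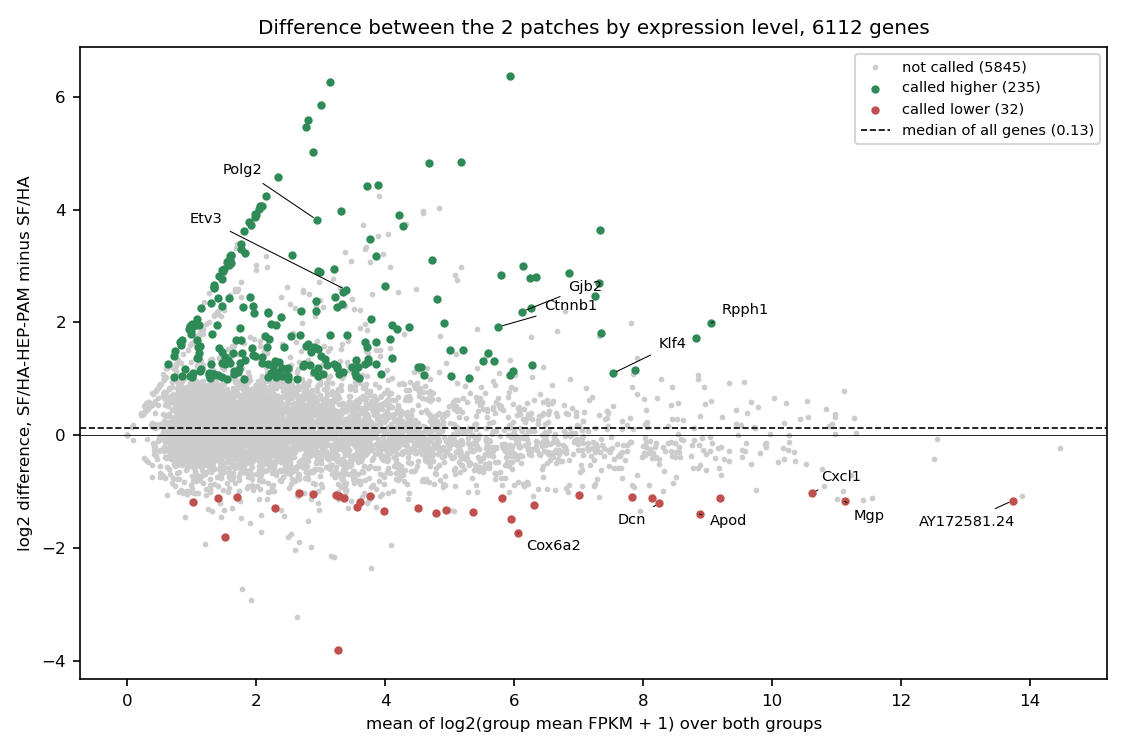
Each point is 1 of the 6112 genes tested, with the mean of log2(group mean FPKM + 1) over both patches on the x axis and the log2 difference, SF/HA-HEP-PAM minus SF/HA, on the y axis. The 235 genes called higher reach down to low levels, while named genes called lower, such as Mgp, Cxcl1 and Apod, sit at high levels, and the dashed line marks the median of 0.13.

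Depth differed between the groups. The SF/HA libraries held 667899, 499061 and 957696 reads and the SF/HA-HEP-PAM libraries 1432037, 2117399 and 1245606, without overlap. A count of 3 reads on a gene of 1 kb, the most that a count of 0 allows, equals 3.13 to 6.01 FPKM in the former and 1.42 to 2.41 FPKM in the latter. Of the 235 rises, 76 passed the 1 FPKM minimum only with the help of SF/HA-HEP-PAM libraries, 159 passed on the other 9 libraries, and 51 had 0 reads in all 3 SF/HA libraries. At least 10 reads in each SF/HA-HEP-PAM library stood behind 170 of the rises. All 32 falls passed on the other 9 libraries. Intervals and floors cover counting error only, and the part of depth in these calls was not tested beyond the alternatives given here and in the closing section. With reads thinned to the smallest library, 38 of the 44 named called genes kept their call and 6 lost it. The numbers of all calls and of rises after thinning are not reported here.

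The largest rise of a protein-coding gene with enough reads was that of Polg2, the accessory subunit of the mitochondrial DNA polymerase, which spans 91712586 to 91723008 on the minus strand of chromosome 10 (mRatBN7.2). Its level was 2.01, 0.769 and 0.401 FPKM under SF/HA and 36.5, 17.9 and 28.5 FPKM under SF/HA-HEP-PAM. The groups did not overlap, and the burned (1.10 to 2.45 FPKM) and control (0.661 to 1.38 FPKM) libraries lay with SF/HA. The log2 difference was 3.82 (SE 0.33, limma adjusted p = 0.000219), and the call held without any single library. These values rest on 14, 4 and 4 reads against 545, 395 and 370. Of 5 tested genes of mitochondrial DNA maintenance, Polg2 was the 1 that was called, and the list's median was 0.08, with the other sign under median-of-ratios scaling (-0.05), quantile normalization (-0.13), in voom (-0.10) and without SF/HA replicate 2 (-0.00355).

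Polg2 begins 500 bases past the end of Ddx5, an RNA helicase gene on the same strand that was looked at after its neighbour's values were seen. Ddx5 measured 40.3, 40.9 and 33.2 FPKM under SF/HA and 58.9, 50.7 and 48.7 FPKM under SF/HA-HEP-PAM, a log2 difference of 0.46 (limma adjusted p = 0.0685) that was not called. Within the Ddx5 span lies Mir3064, whose hairpin locus had 2 reads in each SF/HA library and 60, 63 and 51 reads in the SF/HA-HEP-PAM libraries. The sources do not state whether counting used strand or how reads in overlapping genes were assigned, so reads of Mir3064 cannot be told apart from those of its host.

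The sequence around the annotated Polg2 start is shown because Polg2 had the largest called rise among protein-coding genes with 10 or more reads in each library of the higher group. It covers 250 bases before and 50 after the start, from RefSeq on GRCr8, minus strand, chr10:92222677-92222976. Capitals mark an NF-kB motif (GGG, any 2 bases, then TTTCC) that was searched on both strands and found here 60 bases before the start.

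Polg2: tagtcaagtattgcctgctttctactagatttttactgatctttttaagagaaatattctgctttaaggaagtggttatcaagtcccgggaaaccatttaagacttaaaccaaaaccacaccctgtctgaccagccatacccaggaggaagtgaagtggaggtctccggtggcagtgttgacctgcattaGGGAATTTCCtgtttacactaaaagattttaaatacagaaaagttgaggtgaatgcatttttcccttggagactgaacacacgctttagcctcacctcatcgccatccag

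Of 14 tested transcription factors of the epithelium, 4 rose, none fell and the median was 0.99. In 12 of them every SF/HA-HEP-PAM library lay above every SF/HA library. Over all genes tested, 3.84% rose and 0.524% fell. Every SF/HA-HEP-PAM library was above every SF/HA library in 21.6% of all genes, and below in 9.69%. Counts of each list can be read against these shares. The lists were chosen with earlier results of these data known, so their counts and medians are a description. Etv3, an ETS-family repressor that this list includes, had the largest rise of the 14 factors, and which cells its RNA came from was not tested. It measured 2.44, 5.99 and 1.77 FPKM under SF/HA and 26.5, 15.6 and 30.1 FPKM under SF/HA-HEP-PAM. All 3 SF/HA-HEP-PAM libraries stood above the 9 others, and the log2 difference was 2.58 (SE 0.34, limma adjusted p = 0.00255). Grhl3, a grainyhead factor needed for epidermal barrier formation and wound closure, went from 3.42, 4.26 and 2.38 FPKM to 9.60, 13 and 12.9 FPKM. Its log2 difference was 1.57 (SE 0.20, adjusted p = 0.00255), and the burned libraries were lower than either patch at 0.826 to 1.13 FPKM. Both calls held without any single library.

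Klf4, a zinc finger factor of the corneal barrier, measured 133, 142 and 103 FPKM under SF/HA and 288, 264 and 252 FPKM under SF/HA-HEP-PAM. The log2 difference was 1.09 (SE 0.17, adjusted p = 0.00472). It missed the 2-fold minimum without SF/HA replicate 3 (0.96) and under median-of-ratios scaling (0.88). Pax6, the master regulator of eye development that keeps corneal epithelial identity, measured 7.42, 4.03 and 5.67 FPKM against 16.7, 11.8 and 10.8 FPKM. Controls, at 7.98 to 12.1 FPKM, lay above SF/HA and overlapped SF/HA-HEP-PAM. The Pax6 difference of 1.08 (adjusted p = 0.0352) kept its call in 1 of the 6 fits that each left out 1 library, the fit without SF/HA replicate 1, and its adjusted p reached 0.118. Outside that list, Sox9, a factor of epithelial progenitors and of matrix-producing cells, measured 6.52, 19.6 and 17.4 FPKM against 57.4, 36.4 and 79.4 FPKM, a difference of 1.98 (adjusted p = 0.0207). That call was lost without SF/HA-HEP-PAM replicate 1 or replicate 3, with an adjusted p of up to 0.0832.

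Among 13 tested genes of tight and adherens junctions, 2 rose, none fell and the median was 0.72. Ctnnb1, which encodes beta-catenin, the link between cadherins and actin and the effector of Wnt signalling, measured 19.3, 46.3 and 18.3 FPKM under SF/HA and 103, 80.3 and 117 FPKM under SF/HA-HEP-PAM. SF/HA replicate 2 stood above its group and still below the lowest SF/HA-HEP-PAM library. The log2 difference was 1.92 (SE 0.39, adjusted p = 0.0161), with an adjusted p of up to 0.0681 in the 4 of 6 fits that lost the call, those without SF/HA-HEP-PAM replicate 1 or 3 or SF/HA replicate 1 or 3. Cldn1, a sealing claudin of tight junctions, went from 5.24, 7.93 and 4.62 FPKM to 12.8, 12.7 and 15.9 FPKM, a difference of 1.12 (adjusted p = 0.0284). The Cldn1 call was kept in 1 of 6 such fits, that without SF/HA replicate 2, and reached an adjusted p of 0.104 in the others.

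Gjb2, the connexin 26 gene of gap junctions, measured 16.7, 77.7 and 14.1 FPKM under SF/HA and 128, 85.3 and 179 FPKM under SF/HA-HEP-PAM. SF/HA replicate 2 came close to the lowest SF/HA-HEP-PAM library. The difference was 2.19 (SE 0.55, adjusted p = 0.0369), it was kept in 1 of 6 fits, that without SF/HA replicate 2, and its adjusted p rose to 0.130 in the others. The Pax6 and Cldn1 calls were lost under both median-of-ratios scaling (0.89 and 0.92) and quantile normalization, and that of Gjb2 under the former (1.98, adjusted p = 0.0605).

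Of 11 tested desmosome genes none was called with limma, and the list's median was 0.59. In 9 of them every SF/HA-HEP-PAM library lay above every SF/HA library, beside 21.6% of all genes tested. Col17a1, the transmembrane collagen of hemidesmosomes that anchors basal epithelial cells, was the 1 called member of the collagen list. It rose from 5.60, 3.81 and 4.51 FPKM to 9.45, 10.3 and 13.4 FPKM, a difference of 1.09 (adjusted p = 0.00606). That call was lost without SF/HA-HEP-PAM replicate 3 and without SF/HA replicate 2, where the difference came to as little as 0.96, and under median-of-ratios scaling (0.90) and quantile normalization (0.93). Krt12, the keratin of the differentiated corneal epithelium, was not called. It measured 1949.6, 1393 and 1366 FPKM under SF/HA and 2254, 2339.6 and 1832 FPKM under SF/HA-HEP-PAM, with overlapping groups and a log2 difference of 0.46 (adjusted p = 0.389). Of 16 tested corneal epithelium markers 3 rose (Gjb2, Klf4 and Pax6), none fell, and the median was 0.56.

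Jag1, a ligand of Notch receptors, measured 2.07, 4.47 and 1.39 FPKM under SF/HA and 17.4, 11.1 and 16.5 FPKM under SF/HA-HEP-PAM. The difference was 2.20 (SE 0.30, adjusted p = 0.00289) and held without any single library, while the 4 tested Notch genes had a median of 0.39. F2rl1, a protease-activated receptor, rose by 1.08 (adjusted p = 0.00971) and missed the 2-fold minimum without SF/HA replicate 3 (0.98), under median-of-ratios scaling (0.88) and under quantile normalization (0.96). Sesn2, a stress-induced inhibitor of mTOR complex 1, rose by 1.26 (adjusted p = 0.00289) from a mean of 7.36 ± 1.73 (SD, n = 3) to 18.8 ± 2.73 FPKM (SD, n = 3). Hlf, a PAR-domain transcription factor with circadian output, rose by 2.09 (adjusted p = 0.00461). Tsc22d2, a leucine zipper gene of the TSC22 family, rose by 2.38 (adjusted p = 0.00884). The calls of Sesn2, Hlf and Tsc22d2 held without any single library.

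**Figure D2:**
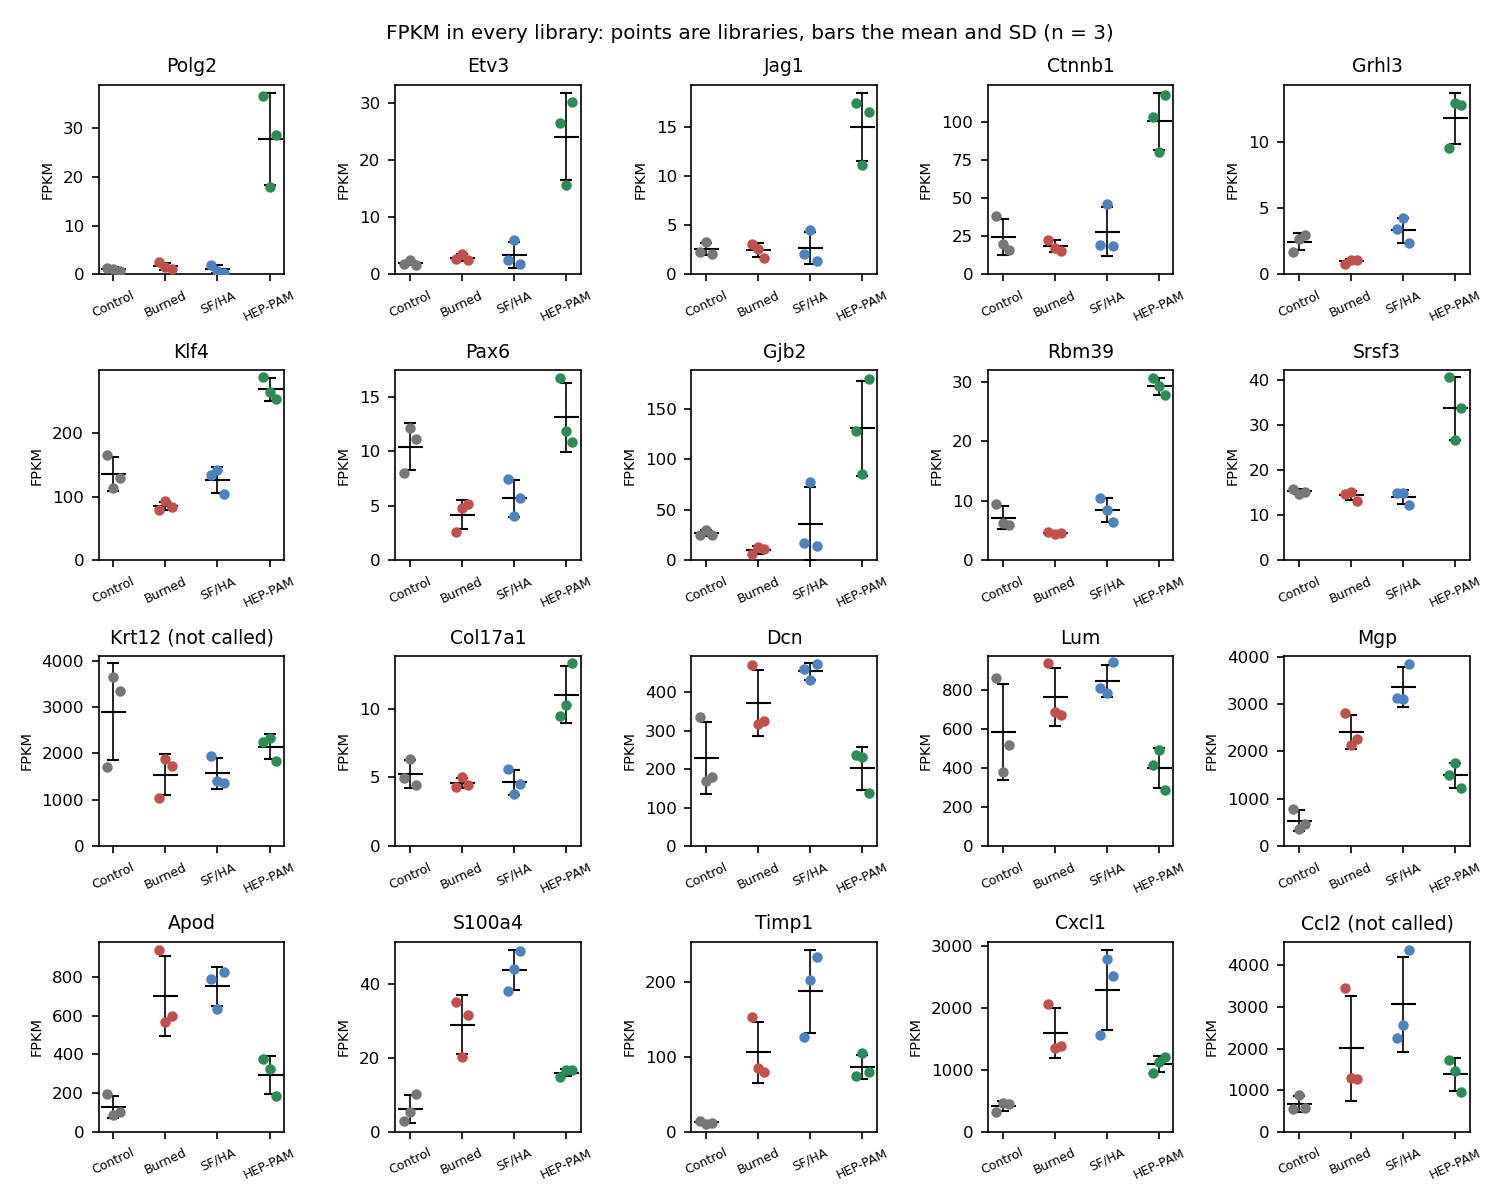
FPKM (y axis, from 0) of 20 genes in the 12 libraries, by group on the x axis (controls and burned corneas left, the patches right); points are libraries and bars the mean and SD of 3. For Polg2, Etv3, Jag1 and Rbm39 the SF/HA-HEP-PAM libraries stand above the 9 others, and for S100a4 and Cxcl1 they lie between the controls and the SF/HA libraries.

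Of 22 tested genes of RNA splicing and nuclear speckles, 6 rose, none fell and the median was 0.48, beside 3.84% of all genes that rose. In 14 of the 22 every SF/HA-HEP-PAM library lay above every SF/HA library, beside 21.6% of all genes tested. Rbm39, a splicing coactivator, measured 10.5, 8.51 and 6.41 FPKM under SF/HA and 30.6, 29.4 and 27.8 FPKM under SF/HA-HEP-PAM. The libraries of each group lay close together and the difference was 1.70 (SE 0.19, adjusted p = 0.00133). Clk1, a kinase that phosphorylates SR splicing proteins, went from 7.29, 7.16 and 6.33 FPKM to 35.5, 14.4 and 26.5 FPKM, a difference of 1.65 (adjusted p = 0.00777). Among the SR proteins themselves, Srsf3 rose by 1.20 (adjusted p = 0.00256) and Srsf2 by 1.31 (adjusted p = 0.0126). Srrm2, a large scaffold protein of nuclear speckles, rose by 1.29 (adjusted p = 0.0239). Rbm39, Clk1 and Srsf3 kept their calls without any single library. Srsf2 lost its call without SF/HA replicate 3 (adjusted p = 0.0560), and Srrm2 in 4 of 6 fits, those without SF/HA-HEP-PAM replicate 1 or 3 or SF/HA replicate 1 or 3 (adjusted p up to 0.0924). Under median-of-ratios scaling Srsf3 came to 0.99, just under the 2-fold minimum.

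The falls included proteoglycans of the stroma. Of 8 tested keratocyte markers 2 fell, none rose, and the median was -0.93. Dcn, decorin, measured 461, 431 and 474 FPKM under SF/HA and 238, 232 and 137 FPKM under SF/HA-HEP-PAM, a log2 difference of -1.21 (SE 0.29, adjusted p = 0.0318). Lum, lumican, measured 814, 786 and 944 FPKM against 416, 495 and 289.7 FPKM, a difference of -1.11 (SE 0.29, adjusted p = 0.0412). In both genes the groups lay apart, and SF/HA-HEP-PAM replicate 3 was the lowest library. Kera, keratocan, measured 135, 147 and 128 FPKM against 98.9, 66.8 and 49.2 FPKM. It was not called at -0.98 (adjusted p = 0.133). The call of Dcn was lost in all 6 fits that left out 1 library (adjusted p up to 0.110) and under quantile normalization (-1.10, adjusted p = 0.0726). That of Lum was lost in 5, kept without SF/HA-HEP-PAM replicate 2 (adjusted p up to 0.148).

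The 2 fits without 1 library that moved the number of falls most were those without SF/HA replicate 3, with 4 falls, and without SF/HA-HEP-PAM replicate 3, with 5. There were 10 without SF/HA-HEP-PAM replicate 1, 18 without SF/HA replicate 1 and 21 without SF/HA-HEP-PAM replicate 2. The named genes called lower kept a negative difference in each of these fits, and the voom fit called 286 genes lower.

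Among 11 tested collagens, 9 had every SF/HA-HEP-PAM library below every SF/HA library, beside 9.69% of all genes tested. Yet none fell by the limma test, as 0.524% of all genes did, and the median was -0.62. Col1a1, a chain of the main fibrillar collagen, measured 494, 463 and 438 FPKM against 347, 280.2 and 176 FPKM, a difference of -0.85 (adjusted p = 0.169). Of 13 tested myofibroblast genes none was called and the median was -0.75. Acta2, smooth muscle actin, measured 5.87, 3.08 and 17.6 FPKM against 1.88, 5.48 and 4.44 FPKM, with overlapping groups, and was not called at -0.79 (adjusted p = 0.355).

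Other falls were of secreted and membrane proteins. Mgp, matrix Gla protein, an inhibitor of calcification, measured 3141, 3101 and 3843 FPKM under SF/HA and 1508, 1757 and 1225 FPKM under SF/HA-HEP-PAM. Its difference was -1.18 (SE 0.26, adjusted p = 0.0241), and under quantile normalization it was -0.77 and not called (adjusted p = 0.0997). Apod, apolipoprotein D, a lipid carrier, went from 791, 636 and 829 FPKM to 374, 322 and 186 FPKM, a difference of -1.40 (SE 0.34, adjusted p = 0.0320). In both genes the groups did not overlap and SF/HA-HEP-PAM replicate 3 was the lowest under that patch. Controls held 362 to 792 FPKM of Mgp, below every SF/HA-HEP-PAM library, and 88.3 to 194 FPKM of Apod, a range that includes SF/HA-HEP-PAM replicate 3.

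S100a4, a calcium-binding protein of motile fibroblasts and leukocytes, measured 38.2, 44.2 and 48.9 FPKM under SF/HA and 14.9, 16.6 and 16.6 FPKM under SF/HA-HEP-PAM, a difference of -1.39 (adjusted p = 0.0320). Lgals1, galectin-1, fell by 1.49 on the log2 scale (adjusted p = 0.0284) and Igfbp4, which binds insulin-like growth factors, by 1.29 (adjusted p = 0.0349). Emp3, a membrane protein of mesenchymal cells, fell by 1.36 (adjusted p = 0.0324). Timp1, an inhibitor of matrix metalloproteases, measured 127, 203 and 233 FPKM against 75.1, 105 and 80.4 FPKM, a difference of -1.07 (adjusted p = 0.0483). Chi3l1, a chitinase-like protein released by injured tissue, fell by 1.12 (adjusted p = 0.0298), and Ifitm1, an interferon-induced membrane protein, by 1.12 (adjusted p = 0.0274). None of these 9 calls, Mgp and Apod included, held in all 6 fits without 1 library, and the adjusted p reached 0.168 for Timp1. Mgp, Lgals1 and Ifitm1 kept theirs in 2, those without replicate 2 of either patch. Apod, Igfbp4 and Emp3 kept theirs without SF/HA replicate 2, Timp1 without SF/HA replicate 1, and S100a4 and Chi3l1 in no such fit.

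Aqp1, the water channel of corneal endothelium and keratocytes, measured 119.7, 119 and 120.2 FPKM against 63.0, 50.5 and 39.0 FPKM, a difference of -1.24 (adjusted p = 0.0382) that was lost in all 6 such fits (adjusted p up to 0.139). Duoxa2, which matures the hydrogen peroxide source dual oxidase 2, fell by 1.34 (SE 0.26, adjusted p = 0.0128), from 25.7, 15.5 and 32 FPKM to 6.80, 10.8 and 8.73 FPKM. Both patches lay below the controls (67.7 to 90.5 FPKM) and the burned libraries (101 to 128 FPKM) in Duoxa2. That call was lost without SF/HA-HEP-PAM replicate 1 and without SF/HA replicate 3 (adjusted p up to 0.0549). Cox6a2, a subunit of cytochrome c oxidase best known from heart and skeletal muscle, had the largest fall by the naming rule at -1.73 (SE 0.45, adjusted p = 0.0389). It went from 116, 96.6 and 133 FPKM to 31.8, 61.3 and 19.3 FPKM, and its call was kept in 1 of 6 fits, that without SF/HA-HEP-PAM replicate 2 (adjusted p up to 0.137).

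A further fall was that of the gene with the symbol Mt1, a metal-binding metallothionein. It measured 279.6, 362 and 359.6 FPKM under SF/HA and 145, 162 and 158 FPKM under SF/HA-HEP-PAM, a difference of -1.09 (SE 0.22, adjusted p = 0.0162). The groups lay well apart. The table places this gene on chromosome 17, while RefSeq on GRCr8 places Mt1 on chromosome 19, so which copy the reads came from is uncertain. The call was lost without SF/HA-HEP-PAM replicate 1 or 3 or SF/HA replicate 3 (adjusted p up to 0.0641). Slc39a4, a zinc importer, and Tgm2, a protein crosslinking enzyme, passed the adjusted p threshold without reaching 2-fold, at -0.82 (adjusted p = 0.0369) and -0.85 (adjusted p = 0.0355). Both were called under median-of-ratios scaling (-1.03 and -1.04), and Tgm2 under quantile normalization (-1.02).

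**Figure D3:**
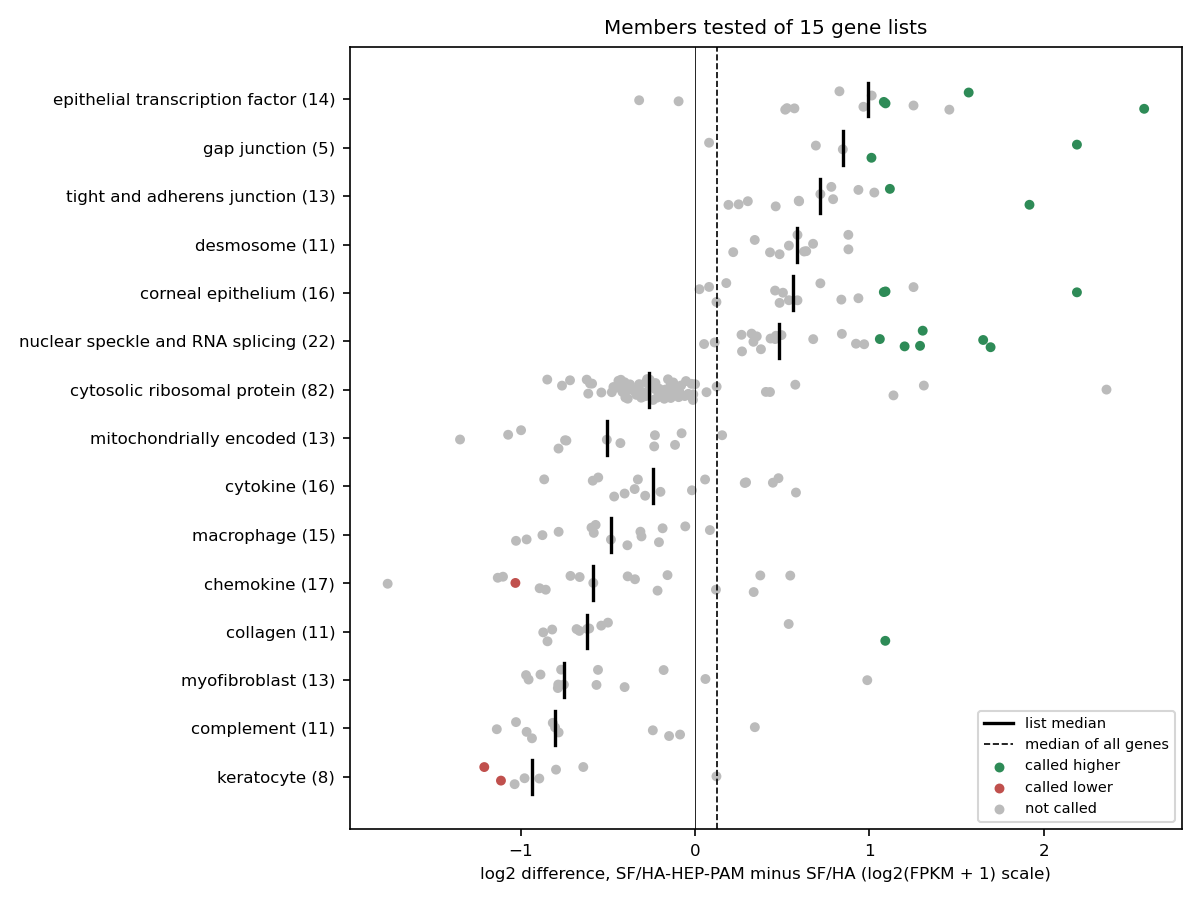
Log2 difference, SF/HA-HEP-PAM minus SF/HA, on the log2(FPKM + 1) scale (x axis) of each tested member of 15 gene lists (y axis, members tested in brackets); the black bar is the list's median and the dashed line the median of all genes, 0.13. Medians run from 0.99 for epithelial transcription factors to -0.93 for keratocyte markers, and called members are coloured.

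Of 17 tested chemokines 1 fell, none rose and the median was -0.58, beside 0.524% of all genes that fell. In 6 of the 17 every SF/HA-HEP-PAM library lay below every SF/HA library, beside 9.69% of all genes tested. The called member was Cxcl1, a neutrophil attractant, which measured 1559.5, 2792 and 2514 FPKM under SF/HA and 948, 1131 and 1199 FPKM under SF/HA-HEP-PAM. The groups did not overlap, controls held 314 to 466 FPKM and burned libraries 1344 to 2055 FPKM. Its log2 difference was -1.03 (SE 0.25, adjusted p = 0.0340). The call was kept in 1 of 6 fits, that without SF/HA replicate 1 (adjusted p up to 0.119), and lost under quantile normalization (-0.79, adjusted p = 0.0509). Ccl2, a monocyte attractant, measured 2253, 2562 and 4374 FPKM against 1722, 1472 and 948 FPKM and was not called at -1.13 (adjusted p = 0.116).

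None of 16 tested cytokines was called with limma, and their median was -0.24. Il6 measured 11.6, 33.3 and 37.4 FPKM against 9.29, 16.5 and 14.3 FPKM, a difference of -0.86 (adjusted p = 0.234). Il1b measured 43.7, 175 and 64.5 FPKM against 36.5, 52.6 and 129 FPKM, a difference of -0.33 (adjusted p = 0.741). Tnf measured 4.00, 6.12 and 8.37 FPKM against 5.33, 6.49 and 12 FPKM, a difference of 0.29 (adjusted p = 0.666). The groups overlapped in all 3 of these cytokine genes, and the directions of Il1b and Tnf changed with the library left out. Of 11 complement genes (median -0.80) and 15 macrophage markers (median -0.48) none was called, with 6 and 4 of them lower in every SF/HA-HEP-PAM library. Over all genes tested, 0.524% were called lower and 9.69% were lower in every SF/HA-HEP-PAM library.

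S100a9, a subunit of calprotectin listed here among neutrophil markers, measured 534, 5395 and 886 FPKM under SF/HA and 709, 1061 and 6279 FPKM under SF/HA-HEP-PAM. S100a8 measured 256, 3298 and 432 FPKM against 154, 265 and 3472 FPKM. Both were high in SF/HA-HEP-PAM replicate 3 and in SF/HA replicate 2, and neither gene was called (adjusted p = 0.882 and 0.864). Without these 2 libraries together, 162 genes were called, 156 higher and 6 lower. The neutrophil granule genes Mpo and Ltf are listed at 0 in the 6 libraries, as is the widely expressed Junb, so a 0 in this table is not read as absence of the RNA. Pthlh and Serpinb2 were also highest there within each group. Pthlh, a parathyroid hormone-like peptide, measured 3.93, 10.9 and 2.93 FPKM against 12.2, 17.9 and 43.1 FPKM (1.86, adjusted p = 0.0868). Serpinb2, an inhibitor of plasminogen activators, measured 4.32, 19.4 and 4.06 FPKM against 9.22, 30.3 and 41.3 FPKM (1.54, adjusted p = 0.133).

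Shares of the reads taken by marker lists were set beside these gene groups. Corneal epithelium markers took 2.92 to 3.90% of reads under SF/HA and 4.56 to 4.66% under SF/HA-HEP-PAM. Keratocyte markers took 3.02 to 3.59% against 1.38 to 2.43%, collagens 1.35 to 1.49% against 0.616 to 1.05%, and corneal endothelium markers 0.181 to 0.190% against 0.0873 to 0.116%. These 4 shares did not overlap between the groups. Nor did those of myofibroblast markers, 0.730 to 0.873% under SF/HA against 0.524 to 0.603% under SF/HA-HEP-PAM. The same held for vascular endothelium (0.00541 to 0.00971% against 0.00236 to 0.00385%) and for lens and retina markers (0.000601 to 0.00225% against 0.00349 to 0.00538%). Of these 2 lists only 2 of 12 and 2 of 14 genes passed the 1 FPKM minimum. Tek and Prox1 of the former and Crygd, Crygs, Crybb2 and Rpe65 of the latter are listed at 0 in the 6 libraries. Neutrophil markers took 0.191 to 1.80% against 0.245 to 2.07%, with overlap. S100a9 and S100a8 held most of this share, with 7727 and 856 of 499061 reads in SF/HA replicate 2. In SF/HA-HEP-PAM replicate 3 they held 22448 and 2249 of 1245606 reads. The share thus mostly measures these genes, and neutrophil numbers were not tested. Markers of conjunctiva and goblet cells took 0.0904 to 0.190% against 0.0936 to 0.153%, also with overlap, and of these Muc5b, Tff1 and Tff3 are listed at 0 in the 6 libraries. With 3 libraries against 3, the two-sided exact permutation test cannot go below p = 0.10. Each share without overlap reached that value (0.15 after Benjamini-Hochberg adjustment over 24 measures). In bulk tissue, fewer cells of a type and less RNA per cell cannot be told apart, and the part of tissue composition in the called genes was not tested.

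**Figure D4:**
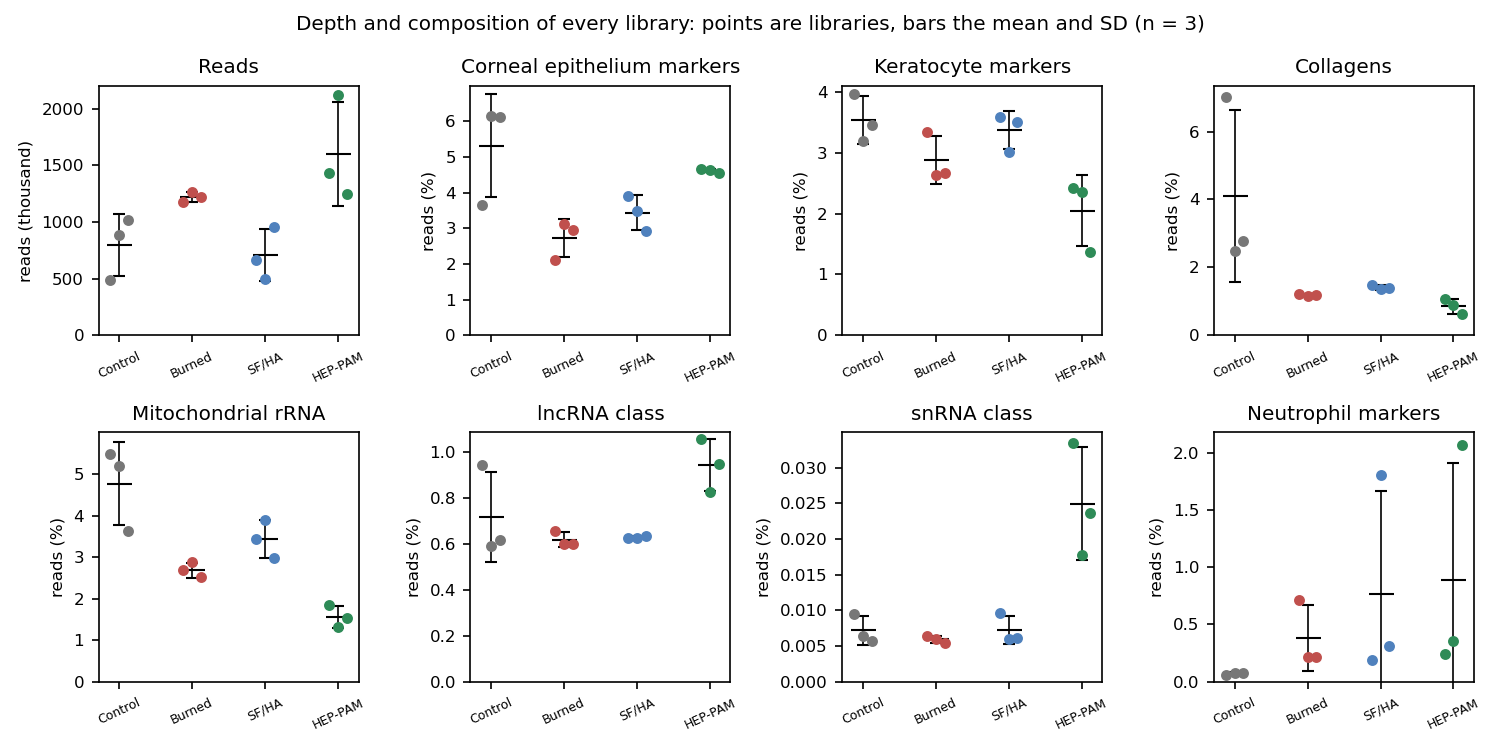
Read totals and shares of reads in percent (y axes, from 0) in each of the 12 libraries, by group on the x axis (controls and burned corneas left, the patches right); points are libraries and bars the mean and SD of 3. SF/HA and SF/HA-HEP-PAM do not overlap in reads, epithelial, keratocyte, collagen, mitochondrial rRNA, lncRNA or snRNA shares, and they overlap in the neutrophil share.

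The called genes were set beside the control and burned libraries as a description, since rises were chosen for high SF/HA-HEP-PAM values and falls for low ones, and 76 rises needed those libraries to pass the minimum. All 3 SF/HA-HEP-PAM libraries were above all 9 others in 205 of the 235 rises, and in 163 of the 170 with at least 10 reads in every SF/HA-HEP-PAM library. The same held for 745 of all 6112 genes tested (12.2%), which were not chosen in that way. Among the 170, the median of the group means was 2.76 FPKM in controls, 2.40 in burned corneas, 2.96 under SF/HA and 10.7 under SF/HA-HEP-PAM. In 7 of the 32 falls the SF/HA-HEP-PAM libraries were below all 9 others. They were below the burned libraries in 23 falls, below all controls in 9 and above all controls in 8. Over all genes tested, they were below all 9 others in 177 (2.90%) and below the burned libraries in 1304. They were below all controls in 718 of all genes tested and above all controls in 1662. The median group means of the falls were 25.4 FPKM in controls, 47.9 in burned corneas, 39.2 under SF/HA and 14.7 under SF/HA-HEP-PAM.

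Calls were then counted by the class of the gene in the annotation. Protein-coding genes made up 5431 of the genes tested, with 144 higher (2.65%), 28 lower (0.516%) and a median log2 difference of 0.10. Of 333 long non-coding RNA (lncRNA) genes 46 were higher (13.8%) and 1 lower, with a median of 0.41. Of these lncRNA genes, 50 of the 333 tested and 14 of the 46 higher needed SF/HA-HEP-PAM libraries to pass the 1 FPKM minimum, where a gene that passes is high, and 32 of the 46 passed on the other 9 libraries. None of these 46 carries a gene symbol in the table, and none of the 333 tested spans overlaps that of a protein-coding gene. Among small nuclear RNA (snRNA) genes 15 of 84 were higher (17.9%), and among small nucleolar RNA (snoRNA) genes 14 of 106 (13.2%). Higher calls also numbered 5 of 30 microRNA genes and 4 of 15 rRNA genes, and none of these 4 short classes had a lower call.

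Low counts were common among the short genes. Of the called snRNA genes 12 of 15, and of the called snoRNA genes 9 of 14, needed SF/HA-HEP-PAM libraries to pass the 1 FPKM minimum. Of 41 called genes of the short non-coding classes, 26 had 0 reads in all SF/HA libraries and 27 overlapped a protein-coding gene, as did 138 of the 254 tested. On the share of reads, which does not depend on the minimum, lncRNA took 0.629% ± 0.0051 (SD, n = 3) under SF/HA and 0.942% ± 0.11 (SD, n = 3) under SF/HA-HEP-PAM. The snRNA share was 0.00725% ± 0.0020 against 0.0250% ± 0.0079, without overlap. Per the labels' protocols, cDNA was primed from poly(A) tails, which most mature snRNA, snoRNA and rRNA lack, and which molecules gave these reads was not tested.

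Classes were also compared within 1 range of gene span, 1 to 3 kb. In that range 38 of 226 lncRNA genes (16.8%) and 4 of 543 protein-coding genes (0.737%) were higher, with medians of 0.56 and -0.08. The lncRNA genes were lower in level, with a median SF/HA mean of 1.69 FPKM against 12.6 FPKM for the coding genes, and this gap in level was not matched. Genes that needed SF/HA-HEP-PAM libraries to pass the 1 FPKM minimum were kept in both classes. Over all spans these were 50 of 333 lncRNA and 427 of 5431 coding genes, and their part in the gap between the classes was not tested.

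Named short RNAs with at least 10 reads in every SF/HA-HEP-PAM library rose by several-fold. Rpph1, the RNA part of ribonuclease P, measured 397, 168 and 259 FPKM under SF/HA and 1134, 933 and 1037 FPKM under SF/HA-HEP-PAM, a difference of 1.99 (SE 0.29, adjusted p = 0.00384). A gene with the symbol 5S_rRNA on chromosome 12, the ribosomal 5S RNA, went from 25.2, 33.7 and 70.2 FPKM to 269.9, 222 and 425 FPKM (2.88, adjusted p = 0.00191). Both calls held without any single library. A gene with the symbol U1, the snRNA of 5' splice site recognition, had the largest value of all called genes at 6.37 (SE 1.35, adjusted p = 0.020), from 0, 14.4 and 7.51 FPKM to 683, 313 and 347 FPKM. Its call was lost without SF/HA-HEP-PAM replicate 1 or 3 or SF/HA replicate 1 or 3 (adjusted p up to 0.0701). The 5S and U1 RNAs come from many near-identical copies, so which copy the reads belong to is uncertain. This U1 gene also overlaps the protein-coding gene Trappc8 on the same strand, so its reads cannot be told apart from those of Trappc8.

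Of the 5 microRNA genes called higher, 2 had at least 10 reads in every SF/HA-HEP-PAM library. Mir3064, described above with Ddx5, measured 44.7, 59.8 and 31.2 FPKM against 625, 444 and 611 FPKM, a difference of 3.63 (SE 0.84, adjusted p = 0.0284). That call was kept in 1 of 6 fits without 1 library, the fit without SF/HA replicate 2 (adjusted p up to 0.102). Mir24-2, at the locus that carries a miR-24 hairpin, measured 97.0, 37.1 and 58.0 FPKM against 427, 341 and 416 FPKM. Its difference was 2.70 (SE 0.43, adjusted p = 0.00563), and its call held without any single library. The reads count fragments over the hairpin gene and do not measure the mature microRNA. The mature sequences that RefSeq lists for these 2 hairpins are shown to identify them, with the seed, bases 2 to 8, in capitals. The 3 seeds differ from each other.

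rno-miR-3064-3p: uUUGCCACacugcaacaccuuaca
rno-miR-24-3p: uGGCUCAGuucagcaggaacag
rno-miR-24-2-5p: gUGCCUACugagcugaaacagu

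The ribosomal RNA gene AY172581.24 of the mitochondrial genome measured 20479, 23189 and 17471 FPKM under SF/HA and 10826, 7582 and 9050.3 FPKM under SF/HA-HEP-PAM, below all 9 other libraries. The difference was -1.16 (SE 0.18, adjusted p = 0.00519). It held without any single library, and it was -0.18 (adjusted p = 0.647) under quantile normalization, which sets the highest values of all libraries equal. Both mitochondrial rRNA genes together took 3.44% ± 0.45 of reads under SF/HA and 1.56% ± 0.26 under SF/HA-HEP-PAM (SD, n = 3 each). Of the 13 mitochondrially encoded protein genes none was called with limma, and their median was -0.51. In 5 of them every SF/HA-HEP-PAM library lay below every SF/HA library, beside 9.69% of all genes tested. None of 82 tested genes of cytosolic ribosomal proteins was called either. Of these, 28 had every SF/HA-HEP-PAM library below every SF/HA library, and the median was -0.26. Over all genes tested, 9.69% lay below in that way.

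Gene span, which the table uses as length and which includes introns, went with the difference among protein-coding genes. From the shortest to the longest group of 10 equal groups, the medians were -0.01, -0.08, 0.03, 0.02, 0.08, 0.12, 0.12, 0.14, 0.17 and 0.24. The longest group, above 34.7 kb, held 35 rises and 1 fall among 543 genes (6.45% higher), and the second shortest held 7 rises and 9 falls. The median SF/HA mean was 1.31 FPKM in the longest group, near the 1 FPKM minimum, and 12.2 FPKM in the second shortest. Of all 5431 coding genes 427, and of their 144 rises 33, needed SF/HA-HEP-PAM libraries to pass that minimum, where a gene that passes is high. These genes were kept in the span groups, and their part in the medians and counts was not tested. On the CPM scale, which does not divide by length, the medians ran from -0.02 to 0.39 between the shortest and the longest group. In the third of coding genes with the highest level, the median was -0.15 for short genes and 0.16 for long genes, with 8 of 521 short genes (1.54%) and 59 of 775 long genes (7.61%) higher. In the third in the middle the medians were -0.05 and 0.18, with 1.71% and 1.78% higher. At the lowest levels they were 0.07 and 0.16, and there 20 of 938 short genes (2.13%) and 1 of 193 long genes (0.518%) were higher. The gap between the longest and shortest groups, taken within each library as a median deviation in log2(CPM + 1), was -0.06, 0.19 and -0.27 under SF/HA and 0.31, 0.26 and 0.51 under SF/HA-HEP-PAM. These values did not overlap (two-sided exact permutation p = 0.10, the smallest possible). In controls the gap was 0.41, 0.11 and -0.08 and in burned corneas -0.44 to -0.32.

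The longest genes that rose included Tnrc6a, a scaffold of microRNA-guided silencing that spans 69.6 kb, and Npepps, a cytosolic aminopeptidase gene that spans 82.5 kb. Tnrc6a measured 1.20, 2.10 and 0.885 FPKM against 9.48, 6.81 and 8.30 FPKM (1.96, adjusted p = 0.00911). Npepps measured 1.67, 1.75 and 1.04 FPKM against 13, 5.84 and 8.01 FPKM (1.95, adjusted p = 0.00191). Both calls held without any single library. Over all classes the shortest group, up to 784 bases, had the highest median of the 10 groups at 0.52, with 56 rises among 612 genes. That median was -0.10 among genes with at least 10 reads in 3 libraries and -0.36 in the voom fit, while among coding genes alone the shortest group stood at -0.01.

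**Figure D5:**
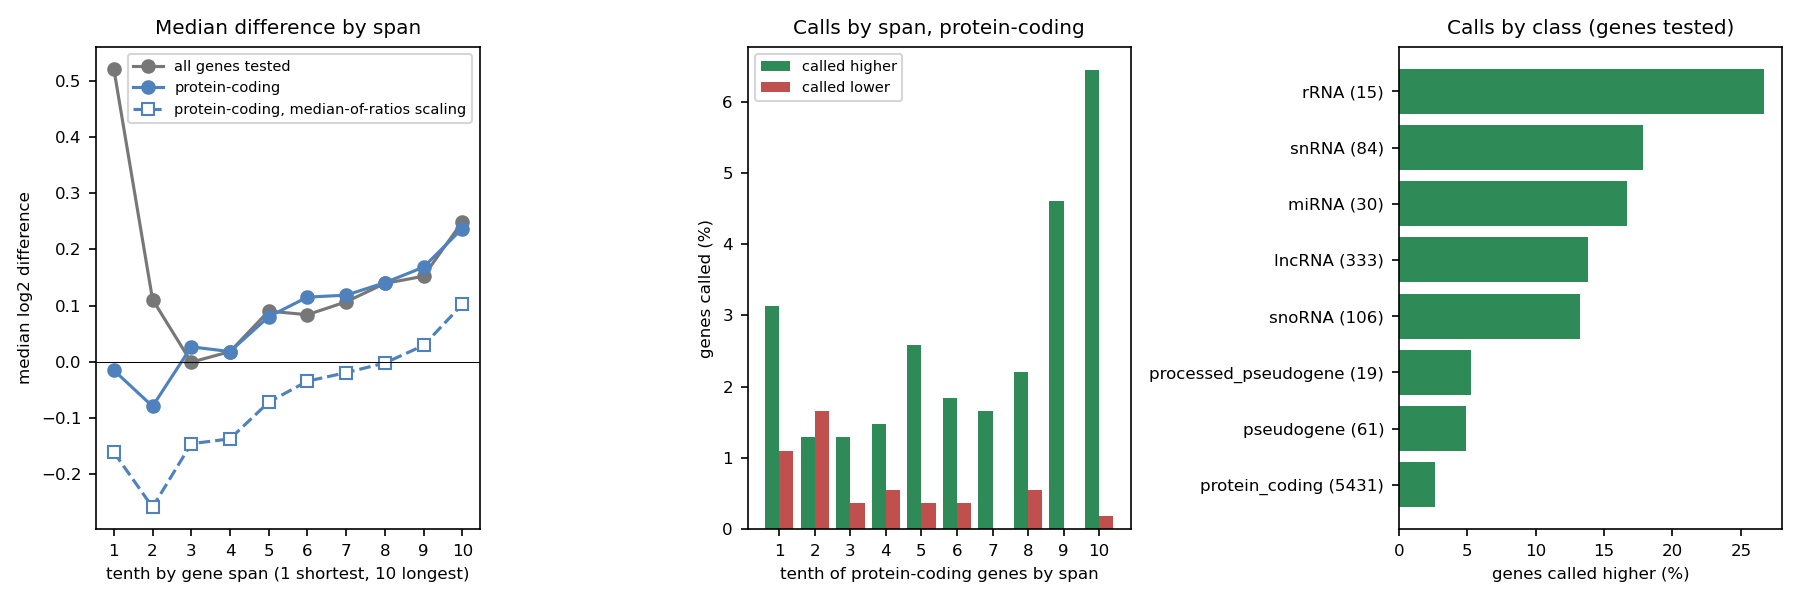
The left panel shows the median log2 difference (y axis) in 10 equal groups by gene span (x axis), the middle panel the percent of protein-coding genes called in each group, and the right panel the percent called higher in classes with at least 15 genes tested (number tested in brackets). Coding medians climb from -0.01 to 0.24, and the same order of ends holds under median-of-ratios scaling, while all classes together start at 0.52 in the shortest group.

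Promoters of the called genes were searched for 4 motifs. RefSeq sequences around the start (250 bases before, 50 after, GRCr8) matched 3876 of the 5431 coding genes by symbol and chromosome, with 89 of 144 rises and 19 of 28 falls. The letters TATAAA, the core of a TATA box, occurred on either strand in 6 of the 19 falls (31.6%) and 10 of the 89 rises (11.2%), beside 8.0% of the matched genes and 14.2% of all 33469 promoters in the RefSeq table. The 6 falls are Apod, S100a4, Aqp1 and Igfbp4, with the letters 30 to 40 bases before the start, Fcna (47 bases) and Emp3 (185 bases). The 10 rises include Rnf19b, Cryba1, Fv1 and Srsf2, with the letters 28 to 32 bases before the start. In the other rises they lie 49 to 203 bases before it. The NF-kB motif occurred in 1 of 19 falls (Cxcl1), in 2 of 89 rises (Polg2 and Col17a1) and in 2.06% of matched genes (1.53% of all promoters). TGANTCA, an AP-1 motif, was found in 1 of 19 falls, 3 of 89 rises and 6.01% of matched genes (7.33% of all), and TGACGTCA, a cyclic AMP response element, in 0, 4 and 3.66% (1.83% of all). The 4 motifs did not overlap in the sequences shown, the counts are a description, and no factor's binding was measured.

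Cxcl1 is shown as the called chemokine, with its pair of NF-kB motif matches in capitals, 102 and 84 bases before the start (minus strand, chr14:17479272-17479571). S100a4 (plus strand, chr2:178388279-178388578) and Apod (plus strand, chr11:82935970-82936269) are shown as falls with TATAAA, in capitals, 31 and 33 bases before the start.

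Cxcl1: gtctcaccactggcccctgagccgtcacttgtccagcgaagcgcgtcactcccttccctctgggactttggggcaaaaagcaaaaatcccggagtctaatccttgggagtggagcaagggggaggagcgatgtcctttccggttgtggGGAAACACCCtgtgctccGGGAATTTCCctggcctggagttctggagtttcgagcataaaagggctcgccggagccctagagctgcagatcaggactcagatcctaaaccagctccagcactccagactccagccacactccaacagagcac
S100a4: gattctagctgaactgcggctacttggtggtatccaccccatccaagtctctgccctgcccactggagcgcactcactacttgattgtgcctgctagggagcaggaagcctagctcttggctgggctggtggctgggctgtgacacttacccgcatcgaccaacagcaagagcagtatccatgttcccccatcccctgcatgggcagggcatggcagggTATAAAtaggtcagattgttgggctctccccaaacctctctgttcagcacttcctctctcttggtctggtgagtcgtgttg
Apod: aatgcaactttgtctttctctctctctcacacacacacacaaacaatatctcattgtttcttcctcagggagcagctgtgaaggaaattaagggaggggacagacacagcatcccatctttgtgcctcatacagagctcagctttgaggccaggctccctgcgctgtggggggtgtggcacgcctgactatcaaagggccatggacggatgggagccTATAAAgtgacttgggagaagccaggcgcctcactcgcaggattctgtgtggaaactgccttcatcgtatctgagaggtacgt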

How the data were processed

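RNA of rat corneas was reverse transcribed from poly(A) tails with primers holding a sample barcode and a molecular identifier, per the labels' protocols. The authors deposited FPKM per gene. The submitters' processing notes name bcl2fastq, fastp, STAR, featureCounts and DESeq2 and the build mRatBN7.2, while the series' design text names HTSeq-count. Whether molecular identifiers were collapsed is not given in the sources used here. Each FPKM times the gene span gave whole reads (largest deviation 9.28e-06 of a read), and the totals per library come from these. The 108 lines that name no gene were left out. The members and gene lists were chosen with earlier results of these data known.

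Group means of log2(FPKM + 1) were fitted over all 12 libraries with limma 3.58.1 (R 4.3.3, trend on the mean level), for genes with at least 1 FPKM in 3 libraries. The contrast was SF/HA-HEP-PAM minus SF/HA, with Benjamini-Hochberg adjustment over all 6112 genes and calls at an adjusted p below 0.05 and a 2-fold minimum. Fold changes on this scale understate the change of low genes. Shares of reads were compared with exact permutation tests (scipy 1.17.1). Named genes were the 15 largest called rises and falls with at least 5 FPKM and 10 reads in each library of the higher group and no overlap, called members and the top-expressed gene of each list, a fixed set, and the 5 largest in each non-coding class and in the longest and shortest groups. The main fit was also run on simulated reads with known changes, up or down at random, in genes above a minimum level. That run did not cover changes in genes with few reads or an excess of rises. Alternatives changed the pseudocount, filter, scaling, test and libraries. Figures were drawn with matplotlib 3.10.9.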

Additional observations from a re-analysis of the deposited data

How the results depend on the processing

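Of the 16 lists described, 15 kept the sign of their median under all 23 alternatives run, the exception being mitochondrial DNA maintenance, and 16 of the 44 named called genes kept their call in every fit without 1 library. Depth limits low genes, since SF/HA libraries held fewer reads. The 267 calls became 143 with a pseudocount of 5, 173 with a 5 FPKM minimum, 445 on the CPM scale, 736 in voom, 177 among coding genes alone, 162 without SF/HA-HEP-PAM replicate 3 and SF/HA replicate 2 together, and 149 to 316 without 1 library. In the same order the 235 rises became 122, 145, 378, 450, 147, 156 and 144 to 282. The 32 falls became 21 with a pseudocount of 5, 9 with no filter, 67 on the CPM scale, 286 in voom, 91 with median-of-ratios scaling, 71 with quantile normalization, 18 in a fit of the 6 libraries alone, 54 with library weights, 19 with reads thinned to the smallest library, 6 without both libraries together and 4 to 34 without 1 library. The 46 lncRNA rises became 23 with a 5 FPKM minimum, 27 without both libraries and 27 to 53 without 1 library.

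The median of the longest group over all classes, 0.25, was 0.38, 0.30 and 0.091 with pseudocounts of 0.1, 0.5 and 5, 0.39 on the CPM scale, 0.18 in voom, 0.11 with median-of-ratios scaling, 0.013 with quantile normalization and 0.21 to 0.26 without 1 library. That of the shortest group, 0.52, was 1.34, 0.75 and 0.18 with those pseudocounts, 0.23 on the CPM scale, 0.045 for the coding genes among these same genes of up to 784 bases (the -0.01 of coding genes comes from groups of their own, with a longer shortest group), 0 after thinning and 0.43 to 0.71 without 1 library. It turned to -0.10 with at least 10 reads in 3 libraries and to -0.36 in voom. The cause was not tested. S100a8 (-0.45, and -1.82 to 0.65 without 1 library) turned to 0.43, 0.04 and 0.65 without SF/HA-HEP-PAM replicate 1 or 2 or SF/HA replicate 2. S100a9 (0.30, and -0.66 to 1.28 without 1 library) turned to -0.66, -0.38 and -0.02 without SF/HA-HEP-PAM replicate 3 or SF/HA replicate 1 or 3. Il1b (-0.33, and -0.84 to 0.24 without 1 library) turned to 0.06 and 0.24 without SF/HA-HEP-PAM replicate 1 or SF/HA replicate 2, and Tnf (0.29, and -0.0102 to 0.51 without 1 library) to -0.0012 in voom and -0.0102 without SF/HA-HEP-PAM replicate 3.

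With the replicate number as a block, 245 genes were called, 215 higher and 30 lower, with 43 lncRNA rises. Same-numbered libraries correlated at 0.155, -0.0935 and -0.0764 in their deviations from the group means, and for numbers 2 and 3 another number correlated best (0.162 and 0.165), so the numbers were not taken as a pairing. The block dropped the calls of Gjb2, Ifitm1, Pax6, Lum, Timp1 and Cxcl1.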
